A study of Gallus gallus with 20 samples.

Results

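Liver cells build triglyceride from glycerol-3-phosphate and fatty acids, store it in coated droplets and release it again with lipases, and 9 genes of this route are described here. They were chosen by name, as the entries of the deposited count table with the symbols GPAM, GPAT3, AGPAT2, LPIN1, MOGAT1, DGAT2, PLIN2, PLIN3 and PNPLA2. All 9 were in the table, among 13956 entries named by a gene symbol and 54062 entries in all. A filter on low counts kept 8 of them for testing. PLIN3, with 1 to 38 counts per library, did not pass and is described mainly by its levels.

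Total RNA of liver was sequenced from Ogye, a Korean native breed, and Cornish, a meat breed, at 5 and 10 weeks of age. The 4 groups of breed and age held 5 libraries each, and the labels name no treatment or genetic alteration in any of them. The study asked what in liver transcription goes with the different body weights of these breeds. The labels state neither sex nor feeding state, nor that each library is a bird of its own, so the p-values below measure the spread between libraries, which may be technical.

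The first acyl chain is put on glycerol-3-phosphate by the acyltransferases GPAM and GPAT3, and the next one by AGPAT2. LPIN1 then removes the phosphate to give diacylglycerol, which MOGAT1 can also make from monoacylglycerol, and DGAT2 adds the last chain. The perilipins PLIN2 and PLIN3 coat the droplet, and PNPLA2, the adipose triglyceride lipase, starts its breakdown. In birds the liver rather than adipose tissue is the main site of fatty acid synthesis. These roles are known mostly from mammals.

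Positions were taken from RefSeq on GRCg7b, the build named in the submitters' processing notes, and all 9 genes are annotated there as protein coding. GPAM lies on chromosome 6 at 27407836 to 27457816 and spans 50 kb. GPAT3 lies on chromosome 4 at 46086213 to 46103830, AGPAT2 on chromosome 17 at 8343637 to 8351623, and DGAT2 on chromosome 1 at 195692409 to 195708598. No other annotated gene overlaps these 4. PLIN2 lies on the sex chromosome Z at 34056394 to 34070493, also without an overlapping gene. LPIN1 on chromosome 3 at 97090032 to 97161520 is the longest at 71.5 kb, and it overlaps the long non-coding RNA LOC121110239. MOGAT1 on chromosome 9 at 7695350 to 7717563 overlaps the long non-coding RNA LOC121111486. PNPLA2 on chromosome 5 at 15350110 to 15376279 overlaps EFCAB4B, and PLIN3 on chromosome 28 at 5298239 to 5307290 overlaps UHRF1. The library kit keeps strand, but the strand setting of the counting is not given in the sources used here, so reads of the overlapping pairs cannot be told apart.

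Libraries held 14865637 to 31848768 counts, of which 9625549 to 21106844 fell on named genes. The 7 hepatocyte markers were all expressed, with a summed level, mostly from albumin and the fibrinogens, between 121000 and 274000 CPM (counts per 1e+06 scaled counts of named genes) in every library. Single markers moved apart: with age in Ogye AMBP, APOA1, SERPINC1 and TTR fell and FGA and FGB rose. In that comparison 46.1% of all tested genes were called by the test given below. At 10 weeks AMBP, SERPINC1 and TTR were higher and FGA and FGB lower in Cornish, where 7.65% of all tested genes were called. With age in Cornish AMBP, FGA, FGB and SERPINC1 rose, where 7.36% were called. AMBP was also lower in Cornish at 5 weeks, where 19.1% were called. The interaction of breed and age was called for AMBP, SERPINC1 and TTR, where 23.4% were called. Replicate 2 of Ogye at 10 weeks had the lowest TTR of all libraries (271 CPM) and the highest FGA (90000 CPM). Replicates 3, 4 and 5 of Ogye at 5 weeks also stood apart. The log2 deviation of a gene from its median over all libraries fell with the genomic span of the gene in these 3 libraries. The Spearman correlations across genes were -0.60, -0.61 and -0.60, against -0.15 to 0.36 in the other libraries. Genes are not independent replicates, and these values are descriptions. Because the 3 libraries are most of 1 group, results that use Ogye at 5 weeks are also given without them, an alternative added after the libraries had been seen. Only 2 libraries of that group then remain.

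At 5 weeks GPAM and PLIN2 were higher in Cornish than in Ogye, by log2 fold changes of 3.06 ± 0.62 (SE) and 2.75 ± 0.51, while DGAT2 was lower by a log2 fold change of -1.09 ± 0.36. Calls rest on edgeR's quasi-likelihood test with Benjamini-Hochberg adjustment over all tested genes, at an adjusted p under 0.05. These 3 of 8 tested genes were called, where 19.1% of all 10697 tested genes were. The median log2 fold change was -0.39 over the 8 genes and 0 over all tested genes. Without the 3 libraries none of the 3 calls held, and PNPLA2 was called instead as lower in Cornish. In that fit only 0.904% of all genes were called.

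At 10 weeks PNPLA2 was higher in Cornish, by a log2 fold change of 1.05 ± 0.23, and it was the only one of the 8 genes to be called. The share of all tested genes called at this age was 7.65%, so 1 of 8 is close to the background. The median log2 fold change was 0.50 over the 8 genes and -0.03 over all tested genes.

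Between 5 and 10 weeks GPAM and PLIN2 rose in Ogye, and GPAT3, MOGAT1 and DGAT2 fell. The 5 calls among 8 genes stand against 46.1% of all tested genes, a background near their own share. In Cornish PNPLA2 rose over the same interval and none of the other 7 was called, where 7.36% of all tested genes were. The comparison of the breeds at 5 weeks and that of the ages in Ogye share the Ogye libraries at 5 weeks, so their values for a gene are given side by side and are not independent of each other.

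Whether the breed difference itself depended on age was tested with an interaction term, which subtracts the Cornish minus Ogye value of the younger age from that of the older age. GPAM (-4.10 ± 0.84 on the log2 scale) and PLIN2 (-3.61 ± 0.69) were called with a negative interaction. PNPLA2 (1.64 ± 0.33) and DGAT2 (1.91 ± 0.52) were called with a positive one. These are 4 of 8 genes, where 23.4% of all tested genes were called. Without the 3 libraries GPAM, PLIN2 and PNPLA2 kept their calls, DGAT2 lost it and LPIN1 gained one, where 13.6% of all genes were called.

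**Figure D1:**
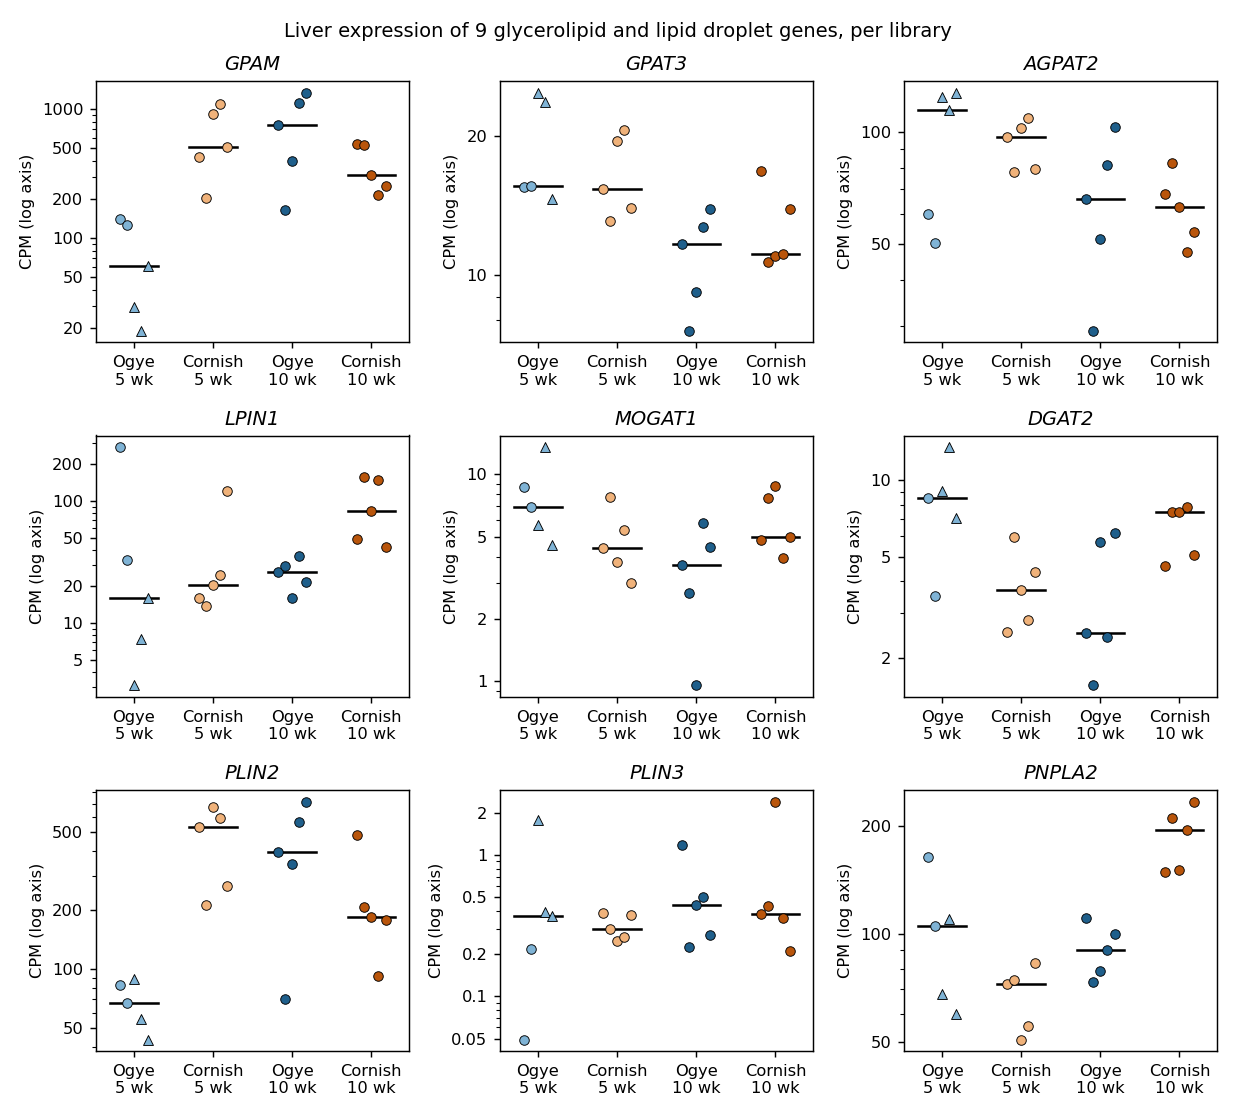
Level of each of the 9 genes in each of the 20 libraries, in CPM on a log axis, by breed and age; horizontal lines mark group medians and triangles mark the 3 Ogye libraries at 5 weeks with a gene length trend. GPAM and PLIN2 are lowest in Ogye at 5 weeks, and the 5 Cornish libraries at 10 weeks hold 5 of the 6 highest levels of PNPLA2.

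GPAM, the mitochondrial enzyme of the first acylation step, had the widest range of the 9 genes in CPM. In Ogye at 5 weeks its level was 142, 127, 29.5, 19.2 and 61.1 CPM in replicates 1 to 5. In Cornish at 5 weeks it was 430, 206, 923, 1100 and 506 CPM. Every Cornish library lay above every Ogye library at this age, a separation shown in either direction by 6.85% of tested genes. In Ogye at 10 weeks the levels were 750, 165, 395, 1120 and 1340 CPM, and in Cornish at 10 weeks 534, 528, 311, 218 and 252 CPM. At 10 weeks the breeds overlapped, and Ogye replicate 2 was the lowest library of that age. Ordered by mean, Ogye at 10 weeks (756 ± 490 CPM, SD, n = 5) came first, then Cornish at 5 weeks (632 ± 367 CPM) and Cornish at 10 weeks (368 ± 152 CPM), whose ranges overlap, and last Ogye at 5 weeks (75.7 ± 56.0 CPM).

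The 5-week difference in GPAM was 8.34-fold (adjusted p = 0.0072, unadjusted 95% interval of the log2 fold change 1.77 to 4.35). At 10 weeks the log2 fold change of -1.04 ± 0.58 did not pass (adjusted p = 0.29), with an interval from -2.24 to 0.17. The rise with age in Ogye was 9.97-fold (adjusted p = 0.00048), with no overlap between the ages, as for 19.9% of tested genes. In Cornish the log2 change with age was -0.78 ± 0.57 (adjusted p = 0.42). The interaction had an adjusted p of 0.0028. In bulk liver, fewer cells of a type and less RNA per cell cannot be told apart, for this and for every result here.

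The 3 lowest GPAM levels of all were those of Ogye replicates 3, 4 and 5 at 5 weeks, the libraries with the length trend, and GPAM is the second longest of the 9 genes. Without them the 5-week log2 fold change was 2.24 ± 0.75 and no longer called (adjusted p = 0.20, with 3.8e-06 to 0.20 over all alternatives). The rise in Ogye was then 2.50 ± 0.77 (adjusted p = 0.04) and the interaction -3.28 ± 0.91 (adjusted p = 0.025). Both stayed called in all alternatives tried. The 5-week call was lost in 2 of 29 alternatives. The other was the fit of the 5-week groups alone, which called 56 of all tested genes, against 2042 in the main fit. Without Ogye replicate 2 at 10 weeks, which also had the lowest TTR and the highest FGA of all libraries, the rise in Ogye was 3.58 (adjusted p = 0.00037, with 4.4e-08 to 0.04 over all alternatives). The 10-week breed difference was then -1.30 and not called. The part of gene length in the GPAM levels was not tested further.

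GPAT3, an acyltransferase of the endoplasmic reticulum that does the same step, varied little. It stood at 15.5, 15.6, 24.8, 23.7 and 14.6 CPM in Ogye at 5 weeks and at 11.7, 7.6, 9.23, 12.7 and 13.9 CPM in Ogye at 10 weeks. All 5 older Ogye libraries were below the younger ones, a separation of the ages found in either direction for 19.9% of tested genes. The fall was 1.70-fold (log2 fold change -0.77 ± 0.20, adjusted p = 0.0054). With the 3 libraries left out it was -0.49 ± 0.23 and not called (adjusted p = 0.16, with 0.0015 to 0.16 over all alternatives). Cornish libraries ranged from 13.1 to 20.6 CPM at 5 weeks and from 10.7 to 16.8 CPM at 10 weeks, and neither breed comparison nor the Cornish age comparison was called. The 95% interval of the log2 breed difference ran from -0.61 to 0.23 at 5 weeks and from -0.23 to 0.63 at 10 weeks.

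The 2 first-step enzymes thus went in opposite directions with age in Ogye, though the GPAT3 fall was not called without the 3 libraries with the length trend. GPAM counts per GPAT3 count had a median of 4.17 in Ogye at 5 weeks, with a range of 0.81 to 9.15. The ratio was 1.19, 0.81 and 4.17 in the 3 libraries with the length trend and 9.15 and 8.12 in replicates 1 and 2. GPAM is the longer gene, at 50 kb against 17.6 kb, and the part of length in the ratio was not tested. The medians of the other groups were 36.2 in Cornish at 5 weeks, 63.9 in Ogye at 10 weeks and 28.2 in Cornish at 10 weeks. The lowest ratio outside Ogye at 5 weeks was 15.7. These ratios compare libraries and say nothing of the relative amounts of the enzymes, since counts were not divided by transcript length.

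AGPAT2, which adds the next chain to give phosphatidic acid, was not called in any of the 5 comparisons by edgeR with all libraries. Its levels in Ogye at 5 weeks were 59.9, 50.1, 124, 114 and 127 CPM. The 3 libraries with the length trend were the 3 highest, and AGPAT2, at 7.99 kb, is the shortest of the 9 genes. Cornish at 5 weeks ranged from 78.1 to 109 CPM, Ogye at 10 weeks from 29.2 to 103 CPM and Cornish at 10 weeks from 47.6 to 82.3 CPM. The 95% interval of the log2 breed difference ran from -0.64 to 0.57 at 5 weeks and from -0.69 to 0.53 at 10 weeks. Changes with age had log2 values of -0.52 ± 0.29 in Ogye and -0.56 ± 0.29 in Cornish. Of 29 alternatives 3 called the Ogye value and 2 the Cornish value. The Ogye value was 0.28 ± 0.33 without the 3 libraries.

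LPIN1, a phosphatidate phosphatase that in mammals also acts in the nucleus as a coactivator induced by fasting, was the most variable of the tested genes within a group. In Ogye at 5 weeks it was at 276, 33, 3.11, 7.40 and 16.0 CPM. Replicate 1 was far above the others. In Cornish at 5 weeks the levels were 16.1, 13.7, 20.4, 24.7 and 121 CPM, where replicate 5 stood above the rest. Ogye at 10 weeks was even, with 26.5, 29.2, 16.2, 35.8 and 21.8 CPM. Cornish at 10 weeks had 48.6, 159, 83.7, 148 and 41.9 CPM, all above the Ogye libraries of the same age, a separation found for 12.3% of tested genes.

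The LPIN1 difference at 10 weeks, a log2 fold change of 1.89 ± 0.90, did not pass (adjusted p = 0.21). Its adjusted p ran from 0.012 to 0.35 over the alternatives. It was called when only the 10-week groups were fitted (1.91, adjusted p = 0.012) and by limma-voom with sample weights (1.81, adjusted p = 0.027). At 5 weeks the value of -0.78 ± 0.87 (adjusted p = 0.52) turned to 1.39 without Ogye replicate 1. The change with age in Ogye, -1.38 ± 0.89 (adjusted p = 0.21), turned to 0.79 without that library and was -2.58 ± 0.78 (adjusted p = 0.038) without the 3 libraries. The direction for LPIN1 at 5 weeks therefore depended on which Ogye libraries were kept.

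MOGAT1, which makes diacylglycerol from monoacylglycerol, was a low gene with 13 to 205 counts per library. It stood at 8.66, 6.95, 5.71, 13.5 and 4.54 CPM in Ogye at 5 weeks and at 3.66, 2.68, 0.96, 5.85 and 4.45 CPM in Ogye at 10 weeks. The ages overlapped, and the highest young library was replicate 4. The fall was 2.25-fold (log2 -1.17 ± 0.39, adjusted p = 0.02). Without replicate 4 of Ogye at 5 weeks it was -0.89 and not called (adjusted p = 0.077, with 0.0076 to 0.10 over all alternatives). Without the 3 libraries with the length trend it was -1.15 ± 0.46 and not called either (adjusted p = 0.10). Cornish ranged from 3 to 7.76 CPM at 5 weeks and from 3.95 to 8.83 CPM at 10 weeks. The breed differences of -0.69 ± 0.38 at 5 weeks and 0.79 ± 0.39 at 10 weeks did not pass, and the interaction of 1.48 ± 0.54 was just short (adjusted p = 0.053, with 0.026 to 0.12 over the alternatives).

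DGAT2, which adds the final acyl chain to diacylglycerol, had 14 to 203 counts per library. In Ogye it stood at 8.47, 3.52, 9.02, 13.4 and 7.06 CPM at 5 weeks. At 10 weeks the Ogye levels were 2.50, 1.57, 5.69, 2.42 and 6.17 CPM. In Cornish it was at 2.53, 5.97, 3.71, 2.82 and 4.36 CPM at 5 weeks and at 4.61, 7.50, 7.51, 7.82 and 5.07 CPM at 10 weeks. Ogye had the higher mean at 5 weeks and Cornish at 10 weeks, but the breeds overlapped at both ages.

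The 5-week difference in DGAT2 was 2.13-fold and close to the threshold (adjusted p = 0.043). It lost its call in 13 of 29 alternatives, among them the omission of Ogye replicate 3, 4 or 5 or of Cornish replicate 1, 3, 4 or 5 at that age, with values between -0.85 and -1.16. Without the 3 libraries with the length trend the value was -0.63 ± 0.45 (adjusted p = 0.59). Over all alternatives the adjusted p ran from 0.0022 to 0.59. At 10 weeks the log2 fold change of 0.82 ± 0.37 did not pass (adjusted p = 0.19). The fall with age in Ogye was 2.24-fold (adjusted p = 0.016), and it was -0.92 and not called without Ogye replicate 4 at 5 weeks (adjusted p = 0.06, with 0.0034 to 0.33 over all alternatives). The fall was -0.69 ± 0.46 and not called without the 3 libraries (adjusted p = 0.33). The interaction had an adjusted p of 0.014. Without the 3 libraries it was 1.44 ± 0.58 and not called (adjusted p = 0.11, with 0.00053 to 0.11 over all alternatives).

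**Figure D2:**
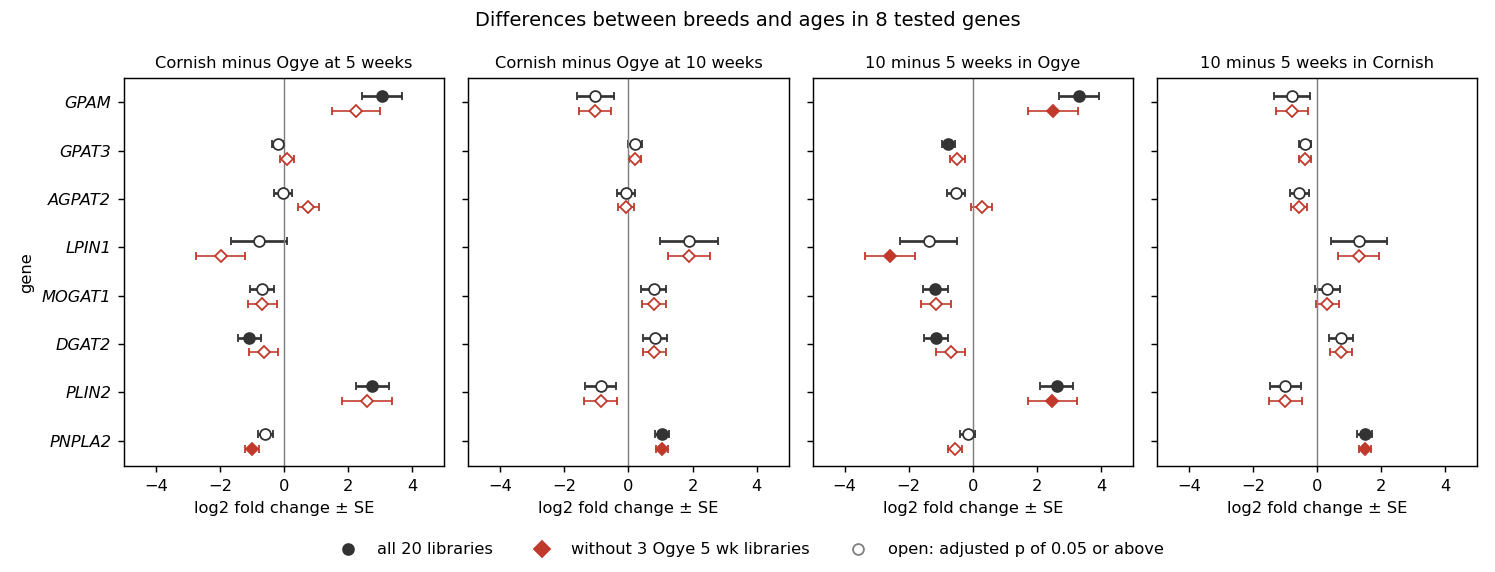
Log2 fold change of the 8 tested genes in the 4 pairwise comparisons, with bars of 1 SE, from all 20 libraries (black circles) and without the 3 Ogye libraries at 5 weeks with a length trend (red diamonds); filled marks were called at an adjusted p under 0.05. GPAM and PLIN2 lie far to the right at 5 weeks and with age in Ogye, and PNPLA2 is the only filled gene at 10 weeks and with age in Cornish.

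PLIN2, the main droplet coat protein of liver cells, was lowest and most even in Ogye at 5 weeks, at 82.7, 67.4, 88.8, 55.8 and 43.7 CPM. Cornish at 5 weeks was at 535, 212, 670, 588 and 267 CPM. The lowest of these exceeded the highest Ogye library, a separation shown in either direction by 6.85% of tested genes. In Ogye at 10 weeks PLIN2 reached 396, 70.3, 345, 561 and 715 CPM, and in Cornish at 10 weeks 482, 207, 185, 92.2 and 178 CPM. The older breeds overlapped widely, and Ogye replicate 2, also lowest for GPAM, was within the range of the young Ogye libraries. By mean, Cornish at 5 weeks (455 ± 203 CPM, SD, n = 5), Ogye at 10 weeks (417 ± 242 CPM) and Cornish at 10 weeks (229 ± 148 CPM) had overlapping ranges, and Ogye at 5 weeks (67.7 ± 18.6 CPM) overlapped only with the single low Ogye library at 10 weeks.

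The 5-week breed difference in PLIN2 was 6.71-fold (adjusted p = 0.0063, unadjusted 95% interval of the log2 fold change 1.69 to 3.81). The rise with age in Ogye was 6.16-fold (adjusted p = 0.00058). Values of -0.87 ± 0.48 for the breeds at 10 weeks (adjusted p = 0.29) and -0.99 ± 0.48 for the ages in Cornish (adjusted p = 0.20) did not pass. The interaction had an adjusted p of 0.0019. Unlike GPAM, PLIN2 was about as high in the 3 libraries with the length trend as in the other 2 of its group, with a mean log2 CPM of 5.92 against 6.23. Without the 3 the 5-week log2 fold change was 2.60 ± 0.78, close in size but no longer called with 2 Ogye libraries (adjusted p = 0.14, with 2.2e-06 to 0.14 over all alternatives). The rise in Ogye was then 2.48 ± 0.77 (adjusted p = 0.043) and the interaction -3.47 ± 0.92 (adjusted p = 0.021). Leaving out Ogye replicate 2 at 10 weeks gave a rise of 2.89 in Ogye and a 10-week breed difference of -1.14, the latter not called.

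Because PLIN2 is on chromosome Z, which male birds carry as a pair, a sign of sex in the data bears on it. The summed level of 8 genes on the female chromosome W was 4.45 on the log2 CPM scale in replicate 3 of Ogye at 5 weeks and between 6.21 and 6.96 in every other library. The PLIN2 level of that library, 88.8 CPM, was the highest of its group. The part of sex in the PLIN2 results was not tested.

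PLIN3, a perilipin found in many tissues, was near the limit of detection. Its levels were 0.0492, 0.217, 1.78, 0.397 and 0.372 CPM in Ogye at 5 weeks. They ranged from 0.244 to 0.389 CPM in Cornish at 5 weeks, from 0.224 to 1.17 CPM in Ogye at 10 weeks and from 0.207 to 2.38 CPM in Cornish at 10 weeks. The 4 groups overlapped. PLIN3 was not tested in the main fit of all libraries, and its values from the alternative without a filter are not given here. It passed the filter when the 3 libraries were left out and was called in none of the 5 comparisons, with adjusted p between 0.13 and 0.75 by edgeR.

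For PNPLA2, the lipase, the Cornish libraries at 10 weeks held the highest mean. In Ogye it was at 164, 105, 67.8, 110 and 59.7 CPM at 5 weeks and at 111, 73.3, 79.0, 89.9 and 100 CPM at 10 weeks, with overlap between the ages. In Cornish it was at 72.5, 74.2, 50.8, 55.3 and 82.7 CPM at 5 weeks. At 10 weeks the Cornish levels were 149, 210, 151, 195 and 233 CPM, above every Cornish library at 5 weeks and every Ogye library at 10 weeks. Separation of the ages in Cornish was found for 16.3% of tested genes, and separation of the breeds at 10 weeks for 12.3%. By mean the order was Cornish at 10 weeks (187 ± 36.8 CPM, SD, n = 5), Ogye at 5 weeks (101 ± 41.4 CPM), Ogye at 10 weeks (90.7 ± 15.4 CPM) and Cornish at 5 weeks (67.1 ± 13.5 CPM), and each neighbouring pair overlapped in range.

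PNPLA2 was 2.07-fold higher in Cornish at 10 weeks (adjusted p = 0.011) and rose 2.79-fold with age in Cornish (adjusted p = 0.0015). Both calls held in all 29 alternatives, with log2 fold changes of 0.96 to 1.13 and 1.39 to 1.59. The interaction (adjusted p = 0.0024) held in all 28. In Ogye the log2 change with age was -0.16 ± 0.23 (adjusted p = 0.59, interval -0.64 to 0.32). At 5 weeks the breed difference of -0.59 ± 0.23 did not pass (adjusted p = 0.074), and it was -1.0 ± 0.22 and called without the 3 libraries (adjusted p = 0.044, with 0.044 to 0.43 over all alternatives).

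**Figure D3:**
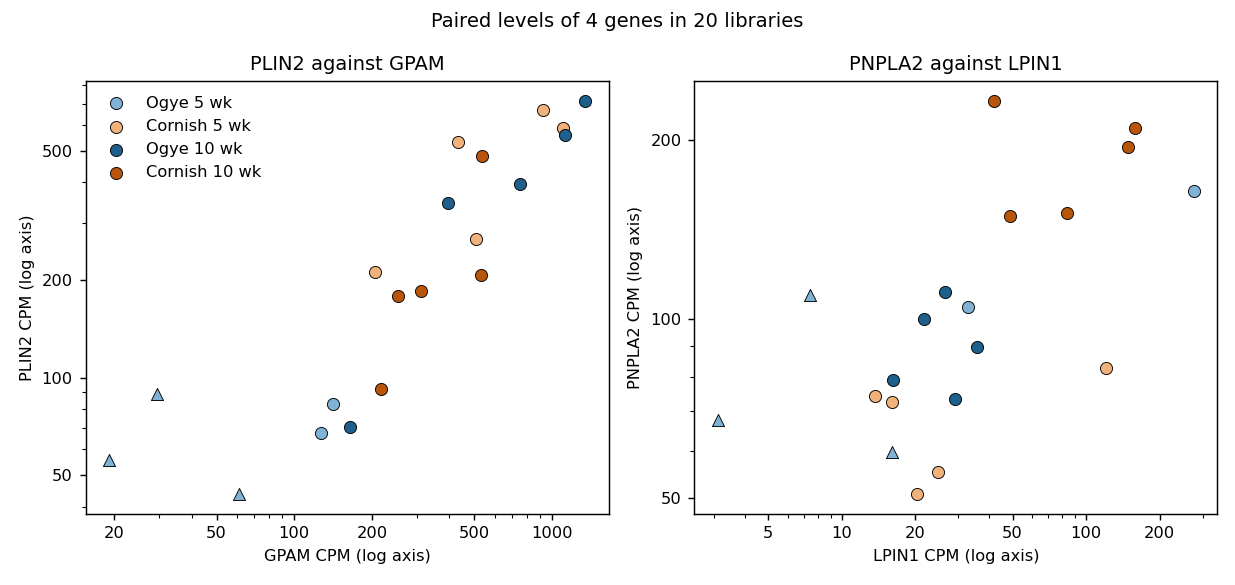
PLIN2 against GPAM and PNPLA2 against LPIN1 in the 20 libraries, in CPM on log axes, coloured by breed and age, with triangles for the 3 Ogye libraries at 5 weeks with a gene length trend. Libraries high in GPAM are also high in PLIN2, including the low Ogye library at 10 weeks beside the young Ogye ones, and the Cornish libraries at 10 weeks lie high in the PNPLA2 panel, where the library with the most LPIN1 is replicate 1 of Ogye at 5 weeks, at 276 CPM.

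GPAM and PLIN2 had profiles of like shape. Each gene's log2 CPM was centred on its own mean over the 20 libraries, and the root mean square difference between 2 profiles was taken, where 0 would be the same shape. It was 0.79 between GPAM and PLIN2, whose own profiles had SDs of 1.69 and 1.33. Between GPAM and the other 6 tested genes it ran from 1.76 for AGPAT2 to 2.11 for DGAT2. Of all tested genes outside the 9, those nearest to GPAM were SECISBP2L at 0.68, MICAL3 at 0.68 and ABHD2 at 0.71. Nearest to PLIN2 were BUB1 at 0.61, GRAMD1B at 0.63 and AACS, the acetoacetyl-CoA synthetase of lipid synthesis from ketone bodies, at 0.63. All libraries enter both profiles, including the 3 with the length trend, so these distances are descriptions.

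Among the 9 genes the 2 longest were lower, and the shortest higher, in replicates 3, 4 and 5 of Ogye at 5 weeks than in replicates 1 and 2. The difference in mean log2 CPM was -3.63 for LPIN1, to which the high replicate 1 adds, -2.02 for GPAM and 1.14 for AGPAT2. PLIN3, at 9.05 kb, differed by 0.95. The genes between 14.1 and 26.2 kb differed by -0.78 for PNPLA2, -0.31 for PLIN2, -0.12 for MOGAT1, 0.39 for GPAT3 and 0.74 for DGAT2.

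Of 21 other listed genes of glycerolipid synthesis, 13 were in the table and 12 were tested. The 5-week and 10-week comparisons each called 1 of the 12, the Ogye age comparison 3, the Cornish one 1 and the interaction 2. Of all tested genes these comparisons called 19.1%, 7.65%, 46.1%, 7.36% and 23.4%, in that order. GPAT4, another first-step acyltransferase, was called at 5 weeks, lower in Cornish (-0.46 ± 0.14, adjusted p = 0.026). At 10 weeks LPIN2, a relative of LPIN1 with the same phosphatase reaction, was the 1 gene called. LPIN2 was at 96.3, 71.4, 46.0, 78.2 and 62.9 CPM in Ogye and at 235, 516, 452, 629 and 549 CPM in Cornish at 10 weeks, with no overlap, as for 12.3% of tested genes. The log2 fold change was 2.75 ± 0.55 (adjusted p = 0.0062), in the same direction as the uncalled value of LPIN1. LPIN2 also rose with age in Cornish (2.02 ± 0.53, adjusted p = 0.028), and its interaction was 3.29 ± 0.74 (adjusted p = 0.005). In Ogye ACSL3, which activates fatty acids, and GPD1L rose with age and GPAT4 fell. Those 3 are set beside 46.1% of all tested genes. Without the 3 libraries the values with age in Ogye were 0.48 for ACSL3, 0.18 for GPD1L and -0.27 for GPAT4, none called, and the 5-week value of GPAT4 was -0.22 and not called. The interaction of GPAT4, called with all libraries, was then 0.31 ± 0.18 and not called (adjusted p = 0.26). The 3 LPIN2 calls held, and LPIN2 was also called as lower at 10 weeks in Ogye (-1.88 ± 0.56, adjusted p = 0.036).

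Of 18 other lipid droplet genes, 10 were tested. FITM2, which helps droplets form at the endoplasmic reticulum, was higher in Cornish at 5 weeks (0.72 ± 0.21, adjusted p = 0.028) and lower at 10 weeks (-0.77 ± 0.21, adjusted p = 0.033), with an interaction of -1.48 ± 0.30 (adjusted p = 0.0026). METTL7A was also called in the interaction, with a positive value, where 23.4% of all tested genes were called. Its interaction was 0.99 ± 0.60 and not called without the 3 libraries (adjusted p = 0.29), while that of FITM2 stayed called (-1.34 ± 0.36, adjusted p = 0.021). The 5-week call of FITM2 was lost without the 3 libraries (0.58 ± 0.29, adjusted p = 0.40). No other gene of this list was called between the breeds at either age, where 19.1% of all tested genes were called at 5 weeks and 7.65% at 10 weeks. With age in Ogye FITM2 and RAB18 rose, and CIDEC (-1.59 ± 0.36, adjusted p = 0.0018), AUP1 and METTL7A fell, where 46.1% of all tested genes were called. FITM2 kept its call without the 3 libraries (1.02 ± 0.29, adjusted p = 0.03). The other 4 lost theirs, with values of -0.93 for CIDEC, -0.61 for METTL7A, 0.15 for RAB18 and 0.03 for AUP1. With age in Cornish the median log2 change of the 10 was -0.11, against -0.04 over all tested genes. CIDEA gained calls without the 3 libraries, with age in Cornish (0.63 ± 0.17, adjusted p = 0.015) and in the interaction (0.95 ± 0.27, adjusted p = 0.027). That fit called 20.3% and 13.6% of all tested genes there.

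Of 13 other genes of triglyceride breakdown, 10 were tested. LIPA, the lysosomal acid lipase, was lower in Cornish at 5 weeks (-0.73 ± 0.18, adjusted p = 0.013), and this call was lost without the 3 libraries (-0.23 ± 0.14, adjusted p = 0.53). LPL, the lipoprotein lipase of the vessel wall, was at 11.9, 39.0, 16.0, 35.0 and 6.90 CPM in Ogye at 10 weeks. Cornish at 10 weeks had 77.9, 77.3, 83.8, 53.4 and 70.6 CPM, all above Ogye (log2 fold change 1.74 ± 0.50, adjusted p = 0.039). The breeds separated at 10 weeks, in either direction, for 12.3% of tested genes. The interaction for LPL was 2.63 ± 0.70 (adjusted p = 0.011). LIPA was also called with a positive interaction, where 23.4% of all tested genes were called. LPL is on chromosome Z and overlaps PSD3. With age in Ogye MGLL rose and LIPA, LPL and LIPC fell, where 46.1% of all tested genes were called. Leaving out the 3 libraries kept the call of LIPC (-1.90 ± 0.58, adjusted p = 0.041), while MGLL (0.29), LIPA (-0.13) and LPL (-1.71, adjusted p = 0.065) were not called. In Cornish PNPLA7 rose (0.54 ± 0.16, adjusted p = 0.04). The shares of all tested genes called were 19.1% at 5 weeks, 7.65% at 10 weeks and 7.36% with age in Cornish.

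In the phospholipid branch, which draws on the same phosphatidic acid and diacylglycerol, 16 of 18 listed genes were tested. At 5 weeks 1 (PCYT1A) was called higher in Cornish and 2 (CEPT1 and CRLS1) lower, where 19.1% of all tested genes were called. At 10 weeks 1 was higher and 2 lower, where 7.65% were called. The interaction was positive for 3 (CEPT1, CRLS1 and PCYT2) and negative for 3 (CHKA, PCYT1A and PISD), where 23.4% were called. Without the 3 libraries it was called for 1 in each direction, where 13.6% were called. CEPT1, which joins choline or ethanolamine head groups to diacylglycerol, had the lowest adjusted p of this list in all 5 comparisons. It stood at 268, 269, 232, 256 and 351 CPM in Ogye and at 97.5, 149, 68.2, 114 and 147 CPM in Cornish at 5 weeks. At 10 weeks it was at 57.2, 37.3, 56.1, 65.5 and 73.6 CPM in Ogye and at 242, 226, 260, 329 and 292 CPM in Cornish. Ogye was thus the higher breed at 5 weeks and the lower one at 10 weeks, without overlap at either age, as for 6.85% and 12.3% of tested genes. The log2 fold change was -1.26 ± 0.21 at 5 weeks (adjusted p = 0.0039) and 2.22 ± 0.22 at 10 weeks (adjusted p = 2.5e-05). CEPT1 kept its 5-week call without the 3 libraries (-1.22 ± 0.26, adjusted p = 0.035), and CRLS1 did not (-0.24 ± 0.15, adjusted p = 0.52). The CEPT1 interaction of 3.48 ± 0.30 (adjusted p = 1.2e-06) had the opposite sign to those of GPAM and PLIN2. CEPT1 overlaps DRAM2 and LRIF1.

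The choline enzymes before CEPT1 moved the other way at 10 weeks. CHKA, a choline kinase, was lower in Cornish (-1.63 ± 0.38, adjusted p = 0.014), as was PCYT1A, the rate-limiting enzyme of phosphatidylcholine synthesis by this route (-0.70 ± 0.13, adjusted p = 0.0052). At 5 weeks PCYT1A was higher in Cornish (0.44 ± 0.13, adjusted p = 0.03), and without the 3 libraries the value was 0.51 ± 0.17 and not called (adjusted p = 0.20). With age in Ogye CDS2, CHKA, PCYT1A, PISD and PTDSS1 rose and CDS1, CEPT1, CRLS1, ETNK2 and PCYT2 fell, 10 of 16 where 46.1% of all tested genes were called. In Cornish CEPT1 rose, 1 of 16 where 7.36% of all were called. With the 3 libraries left out, CHKA, PCYT1A and CEPT1 kept their Ogye calls, and 2 genes of the list were higher with age in Cornish. That fit called 14% of all tested genes with age in Ogye and 20.3% with age in Cornish. CHKA overlaps KMT5B, and PCYT1A overlaps TCTEX1D2.

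**Figure D4:**
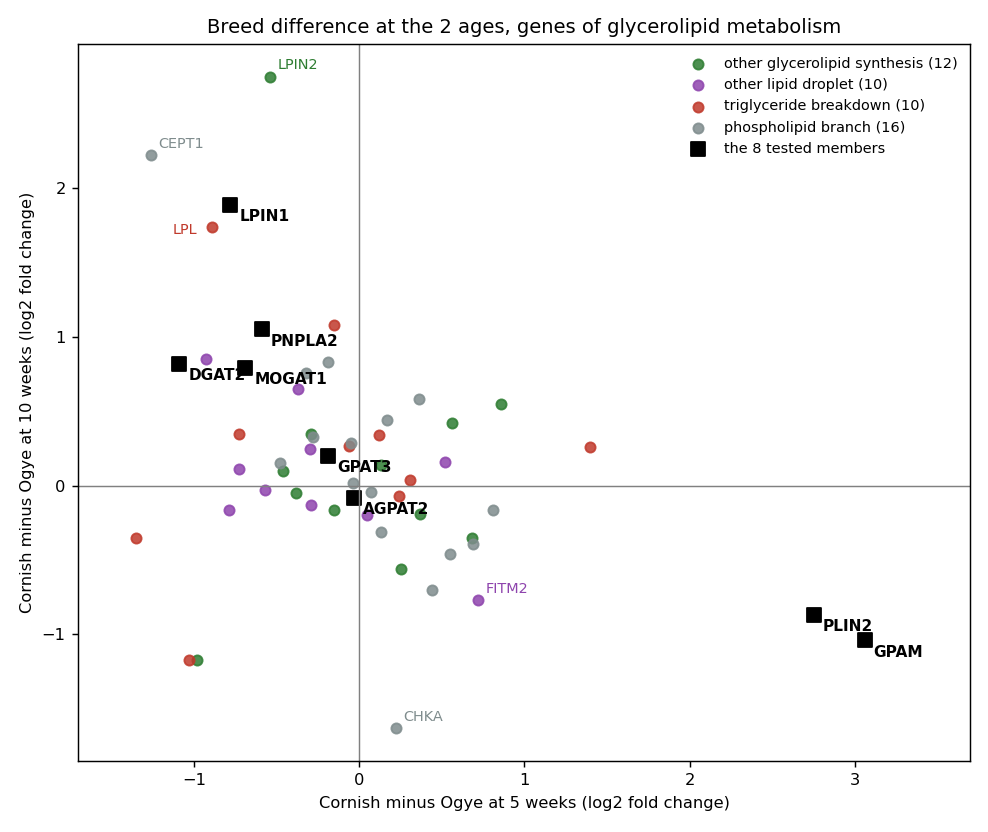
Breed difference (Cornish minus Ogye, log2 fold change) at 10 weeks against that at 5 weeks for the 8 tested genes (black squares) and 4 lists of related genes (coloured points, number tested in the legend), of which 5 genes are named. GPAM and PLIN2 stand alone at the lower right, and CEPT1, at -1.26 and 2.22, lies at the upper left with LPIN2, LPL and the member LPIN1.

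Markers of other cells moved with some of these comparisons. The 5 adipocyte markers in the table, of 6 listed, summed to 60 to 103 CPM in Ogye and 31.3 to 80.1 CPM in Cornish at 5 weeks. At 10 weeks the sums were 26.3 to 51.2 CPM in Ogye and 70.7 to 109 CPM in Cornish, which do not overlap. LPL and CIDEC carried most of this sum, and LPL is also in the list of triglyceride breakdown. ADIPOQ was at or under 2.09 CPM and FABP4 at or under 0.861 CPM in every library. The mean of ADIPOQ at 10 weeks was lower in Cornish, 0.624 against 1.29 CPM (log2 fold change -1.07 ± 0.36, not called). Its interaction was called as negative and that of LPL as positive, where 23.4% of all tested genes were called. Of 7 macrophage markers in the table, of 8 listed, 5 (C1QA, C1QB, C1QC, MARCO and VSIG4) were lower in Cornish at 5 weeks. The other 2, CSF1R and TIMD4, had positive log2 values of 0.43 and 0.45 there, not called. The 7 summed to 1400 to 2750 CPM in Ogye and 926 to 1270 CPM in Cornish at 5 weeks. At 10 weeks the sums were 933 to 1490 and 1240 to 1690 CPM. Of 6 heterophil markers in the table, of 8 listed, 5 (AvBD1, CATH1, CATH2, CATH3 and LYG2) were lower in Cornish at 10 weeks. The 6 summed to 455 to 1090 CPM in Ogye and 25.5 to 120 CPM in Cornish at that age. At 5 weeks the sums were 67.4 to 205 and 155 to 466 CPM. LYG2 carried most of these sums, at 448 to 1070 CPM in Ogye at 10 weeks. Its log2 value at 5 weeks was 1.18. CATH1, CATH2, CATH3, AvBD1 and MMP9 had values of -1.14, -0.91, -0.65, -0.77 and -0.08 there, and no heterophil marker was called at 5 weeks. The 4 erythrocyte markers in the table, of 7 listed, summed to 100 to 268 CPM in Ogye and 61.2 to 105 CPM in Cornish at 5 weeks, and HBA1, HBAD and HBBA, the 3 tested, were lower in Cornish. The sums at 10 weeks were 80.3 to 225 and 67.8 to 133 CPM. With age in Ogye 5 of 6 endothelial markers (CDH5, KDR, STAB2, TEK and VWF) rose. The other, PECAM1, had a lower mean at 10 weeks, 75.5 against 103 CPM, and was not called. The endothelial sums in Ogye were 218 to 503 CPM at 5 weeks and 496 to 637 CPM at 10 weeks. In Cornish the endothelial sums were 319 to 500 and 525 to 689 CPM. Macrophage markers moved with age in Ogye as well, 5 lower and 1 higher, and all 6 heterophil markers were higher. Of all tested genes 19.1% were called at 5 weeks, 7.65% at 10 weeks and 46.1% with age in Ogye. Marker calls are given for all libraries only, so those at 5 weeks and with age in Ogye include the 3 libraries with the length trend. No marker of these 5 lists was at 0 in all libraries of a group. Listed markers of stellate cells and fibroblasts, bile duct and skeletal muscle held calls as well. With age in Ogye COL3A1, DCN and LUM rose and COL1A1 fell, where 46.1% of all tested genes were called. At 5 weeks EPCAM was lower and CFTR higher in Cornish, where 19.1% were called. MYH1B, the 1 muscle marker tested, was at or under 10.1 CPM in every library and was called in every comparison. The part of these cells in the results for the 9 genes was not tested.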

How the data were processed

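Raw counts per entry were deposited. The submitters' processing notes name FastQC, MultiQC, STAR, featureCounts and the build GRCg7b, while versions, parameters and strand setting were not stated. Entries named by a gene symbol were analysed, with positions from RefSeq for 12769 of them. Genes passing edgeR's filterByExpr (10697) were scaled by TMM. Levels in CPM divide each count by the scaled library total on named genes, per 1e+06. In R 4.3.3, edgeR 4.0.16 fitted a mean for each group (glmQLFit, robust), with Benjamini-Hochberg adjustment over all tested genes, 2-sided tests and calls at an adjusted p under 0.05. The procedure was tested on simulated data.

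Alternatives used DESeq2 1.42.0, limma 3.58.1 (voom with sample weights), other filters and size factors, all entries, the compared groups alone, a replicate block and the omission of each library. The members and lists were chosen with earlier results of these data known. The genes named are the 9 members, up to 4 called genes with the lowest adjusted p from each list and comparison, and the 3 genes nearest to GPAM and PLIN2. Some further called genes are named where a list's calls are counted.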

Additional observations from a re-analysis of the deposited data

Results flagged for a closer look

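In 4 of 36 groups of 5 libraries checked, 1 library stood far from the other 4, by a gap to its nearest neighbour of more than 0.71 of the whole range. For normally distributed values chance alone flags about 1 in 20 groups. The CPM were not transformed for this check, so that rate may not hold here. LPIN1 was at 276 CPM in replicate 1 of Ogye at 5 weeks, where the others were at 3.11 to 33 CPM. It was at 121 CPM in replicate 5 of Cornish at 5 weeks, where the others were at 13.7 to 24.7 CPM. PLIN3 was at 1.78 CPM in replicate 3 of Ogye at 5 weeks, against 0.0492 to 0.397 CPM, and at 2.38 CPM in replicate 3 of Cornish at 10 weeks, against 0.207 to 0.433 CPM.

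For 4 genes the breed difference itself differed between the ages by edgeR's interaction test. The log2 interaction was -4.10 for GPAM, -3.61 for PLIN2, 1.91 for DGAT2 and 1.64 for PNPLA2. Without the 3 Ogye libraries with the length trend the DGAT2 interaction was 1.44 and no longer called (adjusted p = 0.11, with 0.00053 to 0.11 over all alternatives).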

How the results depend on the processing

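The number of genes called in the interaction was 4 or 5 in all 28 alternatives. At 5 weeks 3 were called, against 1 (PLIN2) from the compared groups alone and 1 (PNPLA2) without the 3 Ogye libraries with a length trend. Of all named genes tested 2042 were called at 5 weeks, against 5994 by limma-voom, 56 from the groups alone and 99 without the 3 libraries. Over the alternatives these counts ran from 460 to 2292 at 10 weeks (818 in the text), 1531 to 6707 with age in Ogye (4931), 379 to 2862 with age in Cornish (787) and 1491 to 5772 in the interaction (2500), each highest by limma-voom. At 10 weeks 1 was called, against 3 by limma-voom and 2 from the groups alone. With age in Ogye 5 were called, against 3 from the groups alone, 3 without the 3 libraries and 3 to 6 when single libraries were left out. With age in Cornish 1 was called, against 4 by limma-voom and 2 from the groups alone. The cause of these shifts was not tested, apart from the loss of libraries.

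Some uncalled values changed sign. By limma-voom LPIN1 was 1.83 at 5 weeks, 1.45 with age in Ogye and -0.03 in the interaction, AGPAT2 was 0.24 in the interaction and PNPLA2 0.33 with age in Ogye. Without the 3 libraries GPAT3 was 0.09 and AGPAT2 0.76 at 5 weeks, and AGPAT2 was 0.28 with age in Ogye. Leaving out single libraries moved AGPAT2 between -0.22 and 0.09 at 5 weeks, -0.27 and 0.14 at 10 weeks and -0.23 and 0.17 in the interaction. It moved LPIN1 between -1.85 and 1.39 at 5 weeks and -1.69 and 0.79 with age in Ogye, and PNPLA2 between -0.30 and 0.08 with age in Ogye.

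Replicate numbers gave no sign of pairing. Same-numbered libraries correlated between -0.26 and 0.29 over 30 pairs, and 4 of 20 libraries correlated best with their own number. With a replicate block 2, 1, 5, 1 and 4 genes were called in the 5 comparisons, in the order of the text. DGAT2 at 5 weeks was -1.07 and not called (adjusted p = 0.063, with 0.0022 to 0.59 over all alternatives). AGPAT2 was 0.03 at 5 weeks, 0.03 at 10 weeks and 0.01 in the interaction, and LPIN1 0.07 at 5 weeks. Counts as low as 13 for MOGAT1 and 14 for DGAT2 limit the precision of both genes, and a count of 0 would allow up to 3.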

Other observations

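Of 11 listed genes of fatty acid synthesis, which supply the acyltransferases, 10 were tested. With age in Ogye 3 of the 10 rose, where 46.1% of all tested genes were called in either direction, namely the fatty acid synthase FASN (1.26 ± 0.44, adjusted p = 0.026), the elongase ELOVL6 (1.08 ± 0.39, adjusted p = 0.03) and the desaturase FADS2 (0.85 ± 0.22, adjusted p = 0.0045). Without the 3 Ogye libraries with the length trend the values were 0.97 for FASN, 0.89 for ELOVL6 and 0.79 for FADS2, and none was called (adjusted p = 0.32, 0.30 and 0.10). With all libraries ACACA (0.63), SCD (0.72) and ACLY (0.80) had positive uncalled values with age in Ogye. Those of THRSP (-0.79), SREBF1 (-0.31), MLXIPL (-0.25) and ME1 (-0.07) were negative. None of the 10 was called between the breeds at 5 or 10 weeks, with age in Cornish or in the interaction. Of all tested genes 19.1%, 7.65%, 7.36% and 23.4% were called there.

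The droplet coat and the lipase were also read against each other within libraries. PLIN2 counts per PNPLA2 count had a median of 0.643 in Ogye at 5 weeks, with a range of 0.504 to 1.31. The median was 7.38 in Cornish at 5 weeks (2.86 to 13.2), 4.37 in Ogye at 10 weeks (0.959 to 7.13) and 0.987 in Cornish at 10 weeks (0.472 to 3.24). At 5 weeks the breeds did not overlap in this ratio and at 10 weeks they did. PLIN2 alone also separated them at 5 weeks, as did 6.85% of single tested genes in either direction. Among the young Ogye libraries the ratio was 1.31, 0.509 and 0.732 in the 3 with the length trend. It was 0.504 and 0.643 in replicates 1 and 2. The ratio was not tested.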
